A study of Mus musculus with 2 samples.

Results

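The 10 genes described here carry out or control de novo lipogenesis, the synthesis of fatty acids from carbohydrate carbon. They are the regulators Srebf1, Mlxipl and Thrsp and the enzymes Acly, Acaca, Acacb, Fasn, Me1, Scd1 and Scd2. They were taken by gene symbol from the count tables of interscapular brown adipose tissue (iBAT), where all 10 were found among 27179 genes. The tissue came from 20-day-old C57BL/6N mice that were described as male and untreated. The wild-type library and the library from mice with a Ucp1 knockout (Ucp1-KO) were each prepared from the pooled iBAT of 3 animals. UCP1 is the mitochondrial protein that lets brown fat turn stored energy into heat, and the libraries compare young tissue with and without the intact gene. How the knockout allele was made is not given in the sources used here. With 1 library per genotype there is no replicate check, so no p-value is given, and each difference is one between these 2 libraries, not one shown to hold between genotypes.

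The wild-type table summed to 52950913 counts and the Ucp1-KO table to 53216727. Examined were the 15212 genes whose normalised counts averaged 10 or more over both libraries. Normalised counts are the deposited counts divided by a library's size factor. The Ucp1 transcript itself was at 6921 CPM (counts scaled to a library total of 1000000) in wild-type and 711 CPM in Ucp1-KO, which is 12.7% of the wild-type level after normalisation. The sex-linked transcripts did not match the description as male. Ddx3y, Uty, Kdm5d and Eif2s3y, all on the Y chromosome, were at 0 in wild-type, where a count of 0 allows for as many as 6, and had 491 to 3446 counts in Ucp1-KO. Xist, made from an inactive X chromosome, had 32380 and 16478 counts. Sex and genotype therefore cannot be told apart in any value below. Of all counts, mitochondrially encoded RNA took 22.4% (wild-type) and 36.7% (Ucp1-KO).

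In this pathway citrate leaves the mitochondrion and is cleaved to acetyl-CoA in the cytosol, acetyl-CoA is carboxylated to malonyl-CoA, and fatty acid synthase joins these units into palmitate with reducing power from NADPH. A desaturase then turns saturated into monounsaturated fatty acids. Insulin and carbohydrate drive the genes through the transcription factors SREBP1c and ChREBP. In brown fat, which burns fatty acids to make heat, the pathway is known to refill the lipid store and to be active together with fatty acid oxidation.

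All 10 genes were lower in the Ucp1-KO library. Their log2 ratios, the log2 of normalised Ucp1-KO over wild-type counts with 0.5 added to each, ran from -2.11 for Fasn to -0.53 for Acacb, with a median of -1.40. The median over all genes examined was -0.0016. The size rule of a 2-fold difference was met by 8 of the 10 genes in the lower direction, while 9.55% of all genes examined were at least 2-fold lower. None of the 10 was at least 2-fold higher, against 7.42% of all genes examined. The exact 95% counting interval lay below 0 for all 10, as it did for 30.5% of all genes examined, and above 0 for none, against 31.5%. Counting intervals were computed on read pairs and cover counting error only. Strongly expressed genes rarely differed this much, since 183 of the 6395 genes that averaged 1000 or more normalised counts, or 2.86%, were at least 2-fold lower. Each of the 10 genes is among those 6395.

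**Figure D1:**
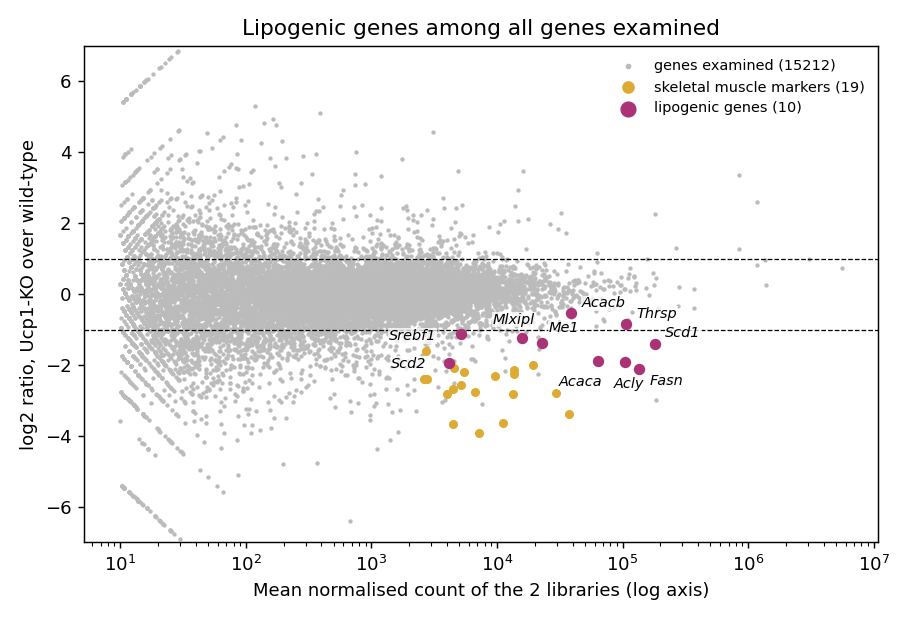
Each grey point is a gene examined, with the mean normalised count of both libraries on a log axis against the log2 ratio of Ucp1-KO over wild-type, and dashed lines mark 2-fold differences. The 10 lipogenic genes lie at the abundant end and below 0, 8 of them under the lower line, and 12 genes fall outside the plotted range.

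The pathway's share of the transcriptome differed accordingly. Together the 10 genes held 1103942 counts in wild-type, or 2.08% of the library (exact binomial interval 2.08% to 2.09%), and 319703 counts in Ucp1-KO, or 0.601% (0.598% to 0.604%). Without mitochondrially encoded genes in the total the shares were 2.69% and 0.949%. The summed normalised counts in Ucp1-KO were 35.6% of those in wild-type. By the absolute fall in normalised counts, Ucp1 came first of all genes examined, Fasn was number 2 with a fall of 167676, Scd1 number 3 with 163248 and Acly number 4 with 121336. Acaca was number 6 and Thrsp number 9. The other 4 of these 10 largest falls were Gpd1, the 45S ribosomal RNA gene Rn45s, the muscle actin Acta1 and the pentose phosphate enzyme Tkt.

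Per transcript length the genes spanned a wide range, and their order was similar in both libraries. Thrsp had the highest level, 61714 normalised counts per kb of annotated exon in wild-type and 34691 in Ucp1-KO. Scd1 followed with 36312 and 13658, and Fasn with 18654 and 4330. At the low end stood Srebf1 with 1203 and 547, and Scd2 with 876 and 229. In wild-type Acaca (5452), Me1 (5348) and Acacb (4506) lay close together at ranks 5, 6 and 7. In Ucp1-KO Acacb moved to rank 4 with 3123, ahead of Acly with 2973, Me1 with 2051 and Acaca with 1487. With the longest transcript as length, the wild-type order was the same, and in Ucp1-KO Acly was at rank 3, Fasn at 4 and Acacb at 5.

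**Figure D2:**
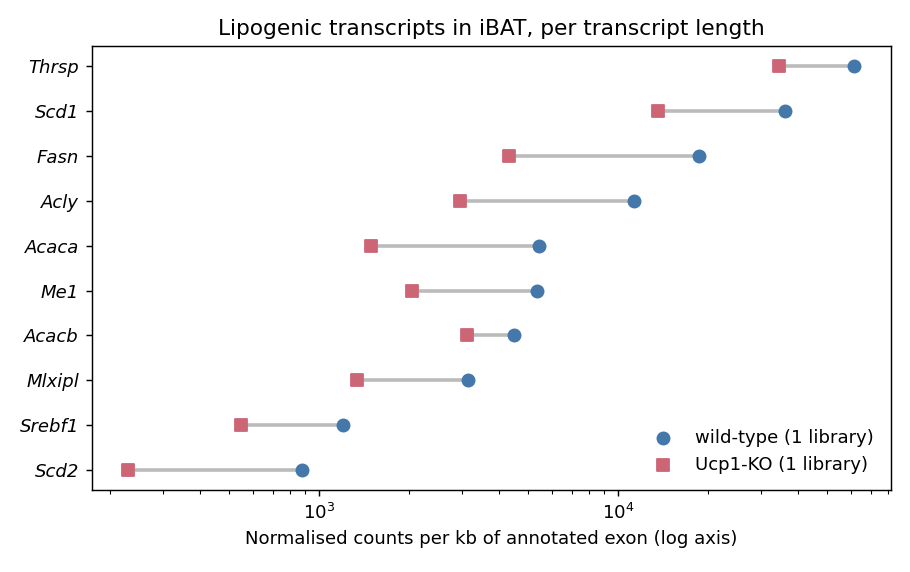
Normalised counts per kb of annotated exon on a log axis, with circles for the wild-type and squares for the Ucp1-KO library. Every square lies to the left of its circle, by the longest grey bar for Fasn and the shortest for Acacb.

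The regulators were lower by amounts near the size rule. Srebf1 (Entrez gene 20787, chromosome 11, 60089913 to 60113407 of GRCm39, minus strand) encodes SREBP1, the transcription factor that switches on genes of fatty acid synthesis. The wild-type library held 7871 Srebf1 counts (95% Poisson interval 7627 to 8121) and the Ucp1-KO library 2907 (2759 to 3060). The Ucp1-KO level was 45.5% of wild-type, a log2 ratio of -1.14 (-1.23 to -1.05). The table holds 1 value per gene, so SREBP1a and SREBP1c transcripts, which start at different promoters, are counted together.

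Mlxipl (Entrez gene 58805, chromosome 5, 135118744 to 135168615, plus strand) encodes ChREBP, which responds to sugar metabolites. Its counts were 24565 (24133 to 25003) for wild-type against 8441 (8188 to 8700) for Ucp1-KO, a log2 ratio of -1.24 (-1.29 to -1.19). The intervals of Srebf1 and Mlxipl overlapped, and the ratio of Srebf1 to Mlxipl counts was 0.320 (0.309 to 0.332) in wild-type and 0.344 (0.324 to 0.366) in Ucp1-KO. Mlxipl is known to have an upstream start whose product, ChREBP-beta, is itself a ChREBP target, and the counts of both forms are added up here as well.

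Thrsp (Entrez gene 21835, chromosome 7, 97062139 to 97066937, minus strand) encodes Spot 14, a small lipogenic protein induced by thyroid hormone and carbohydrate. Its counts were 150424 (149351 to 151503) for wild-type against 68698 (67973 to 69428) for Ucp1-KO. The log2 ratio of -0.83 (-0.85 to -0.81) missed the size rule. Scaling to total counts gave -1.14 and scaling to adipocyte markers -1.10, both past it.

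The enzymes of palmitate synthesis, with Acacb as the exception, had ratios near -2. Acly (Entrez gene 104112, chromosome 11, 100367165 to 100440756, minus strand), ATP citrate lyase, which makes cytosolic acetyl-CoA, was counted 182682 times (181499 to 183871) in wild-type and 39052 times (38506 to 39604) in Ucp1-KO. The Ucp1-KO level was 26.3% of wild-type, a log2 ratio of -1.93 (-1.95 to -1.90). Fasn (Entrez gene 14104, chromosome 11, 120696672 to 120715995, minus strand), fatty acid synthase, had 242262 counts (240900 to 243630) and 45689 counts (45098 to 46285). At 23.2% of wild-type (22.9% to 23.5%) and a log2 ratio of -2.11 (-2.13 to -2.09) it was the lowest of the 10, and its interval overlapped with that of no other member.

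The acetyl-CoA carboxylases, whose product malonyl-CoA is the building block of Fasn, differed from each other. Acaca (Entrez gene 107476, chromosome 11, 84020476 to 84292477, plus strand) encodes the cytosolic enzyme ACC1. Its counts were 111273 (110350 to 112202) for wild-type against 24661 (24228 to 25100) for Ucp1-KO, a log2 ratio of -1.87 (-1.90 to -1.85). Acacb (Entrez gene 100705, chromosome 5, 114284307 to 114388822, plus strand) encodes ACC2, which sits at the mitochondrial surface and whose malonyl-CoA restrains fatty acid entry. It had 50910 counts (50287 to 51539) and 28665 counts (28198 to 29138), and its Ucp1-KO level was 69.3% of wild-type, a log2 ratio of -0.53 (-0.56 to -0.50). Within a library, where no scaling between libraries enters, Acaca had 2.19 counts for each count of Acacb (2.15 to 2.22) in wild-type and 0.860 (0.840 to 0.881) in Ucp1-KO. Per kb of exon the ratio was 1.21 in wild-type and 0.476 in Ucp1-KO, so that Acacb was the more abundant form only in the latter. With the length of the longest transcript Acaca also ranked above Acacb in wild-type and below it in Ucp1-KO. Transcripts of the pair shared no 50-base word.

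Me1 (Entrez gene 17436, chromosome 9, 86462646 to 86578104, minus strand), cytosolic malic enzyme, supplies NADPH. Its counts were 36341 (35815 to 36873) for wild-type against 11324 (11031 to 11623) for Ucp1-KO, a log2 ratio of -1.38 (-1.43 to -1.34). Acly outnumbered Me1 by 5.03 counts to 1 (4.95 to 5.11) in wild-type and by 3.45 to 1 (3.35 to 3.55) in Ucp1-KO.

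The desaturases Scd1 and Scd2 place the double bond that turns stearate into oleate. Scd1 (Entrez gene 20249, chromosome 19, 44382894 to 44399154, minus strand) had the most counts of the 10, 290301 (288809 to 291798) for wild-type and 88709 (87885 to 89539) for Ucp1-KO, a log2 ratio of -1.41 (-1.43 to -1.40). Scd2 (Entrez gene 20250, chromosome 19, 44281613 to 44295303, plus strand) had 7313 counts (7078 to 7554) and 1557 counts (1450 to 1670), a log2 ratio of -1.93 (-2.05 to -1.82). Scd1 had 39.7 counts per Scd2 count (38.4 to 41.0) in wild-type and 57.0 (53.1 to 61.2) in Ucp1-KO. Of the 7429 different 50-base words in annotated Scd1 transcripts, 145 (1.95%) also occur in Scd2 transcripts. How reads matching both genes were counted was not stated, so the lower value, that of Scd2, is uncertain. The neighbouring Scd3 and Scd4 had at most 15 counts in either library.

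**Figure D3:**
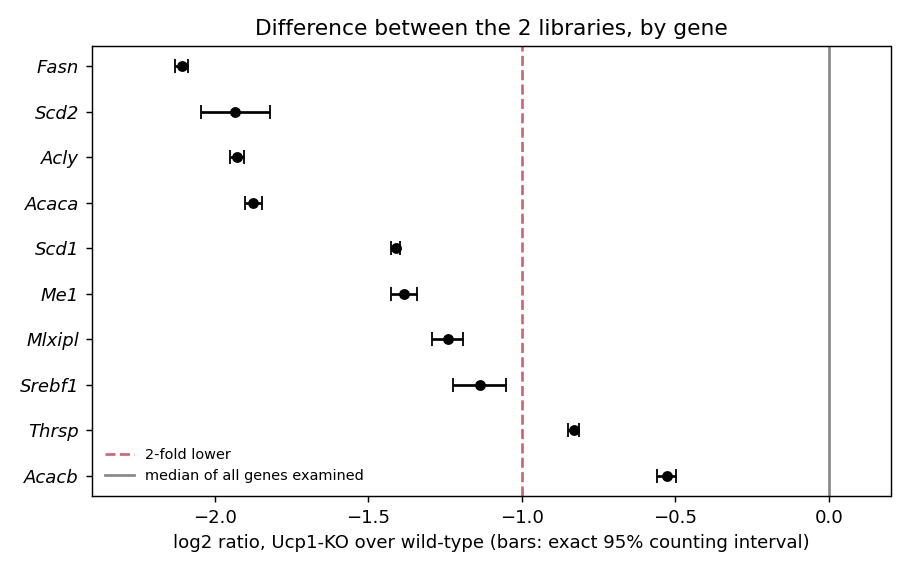
The log2 ratio of Ucp1-KO over wild-type for each gene with its exact 95% counting interval on read pairs, a dashed line at a 2-fold lower level and a grey line at the median of all genes examined. Fasn, Scd2, Acly and Acaca lie near -2, Scd1, Me1, Mlxipl and Srebf1 between -1.41 and -1.14, and Thrsp and Acacb right of the dashed line.

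Read as an order, Fasn came first and was followed by Scd2, Acly, Acaca, Scd1, Me1, Mlxipl, Srebf1, Thrsp and Acacb. The counting intervals of neighbours overlapped for Scd2 and Acly, for Scd1 and Me1, and for Mlxipl and Srebf1. The interval of Scd2 (-2.05 to -1.82) also held that of Acaca (-1.90 to -1.85), which is not next to it in the order. Fasn stood at 1.61 counts per Thrsp count (1.60 to 1.63) in wild-type and at 0.665 (0.654 to 0.676) in Ucp1-KO. Scd1 stood at 1.20 counts per Fasn count (1.19 to 1.21) in wild-type and at 1.94 (1.91 to 1.97) in Ucp1-KO. Fasn and Acly kept a nearer proportion, 1.33 (1.31 to 1.34) and 1.17 (1.15 to 1.19). The share of the 10-gene counts held by Fasn was 21.9% in wild-type and 14.3% in Ucp1-KO, and that of Thrsp 13.6% and 21.5%.

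Promoter sequences are shown for the ends of that order and for Mlxipl, because the genes are known targets of shared factors. RefSeq promoter windows of the GRCm38.p6 annotation, from 250 bases before to 50 bases after a start, held 12 windows for 8 of the 10 genes, and each window matched the GRCm39 genome at 1 place on its chromosome. Windows are written 5′ to 3′ on the strand of the gene. Capitals mark CCAAT boxes (CCAAT, or ATTGG on the other strand), bound by NF-Y, E-boxes (CACGTG), the core read by ChREBP and USF, and a sterol regulatory element, read by SREBPs, in the form TCACNCCAC on either strand. The Fasn window is chr11:120715324-120715623 on the minus strand, with CCAAT boxes 90, 62 and 59 bases before the start, the last 2 of which overlap. The Acly window is chr11:100418777-100419076 on the minus strand. The Acacb window is chr5:114303329-114303628 on the plus strand, at a start inside the annotated gene. The upstream Mlxipl window, chr5:135118494-135118793 on the plus strand, and the downstream one, chr5:135135495-135135794, are 17001 bases apart and were added after their matches were seen.
Fasn: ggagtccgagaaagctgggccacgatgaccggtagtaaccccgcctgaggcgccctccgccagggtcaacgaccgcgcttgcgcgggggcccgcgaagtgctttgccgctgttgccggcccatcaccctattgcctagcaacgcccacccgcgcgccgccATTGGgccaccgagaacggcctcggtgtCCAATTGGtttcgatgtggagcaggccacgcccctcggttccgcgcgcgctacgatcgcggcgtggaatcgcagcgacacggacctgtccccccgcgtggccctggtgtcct
Acly: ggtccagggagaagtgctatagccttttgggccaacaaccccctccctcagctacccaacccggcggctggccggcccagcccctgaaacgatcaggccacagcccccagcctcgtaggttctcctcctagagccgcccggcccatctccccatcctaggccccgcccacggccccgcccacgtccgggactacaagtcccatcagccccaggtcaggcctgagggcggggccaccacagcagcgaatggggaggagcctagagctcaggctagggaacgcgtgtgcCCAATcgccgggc
Acacb: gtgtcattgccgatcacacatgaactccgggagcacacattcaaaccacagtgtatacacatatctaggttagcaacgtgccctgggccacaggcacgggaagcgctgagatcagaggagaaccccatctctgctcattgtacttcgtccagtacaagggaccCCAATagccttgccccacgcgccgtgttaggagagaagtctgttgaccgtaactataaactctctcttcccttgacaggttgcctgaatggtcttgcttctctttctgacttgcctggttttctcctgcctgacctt
Mlxipl upstream: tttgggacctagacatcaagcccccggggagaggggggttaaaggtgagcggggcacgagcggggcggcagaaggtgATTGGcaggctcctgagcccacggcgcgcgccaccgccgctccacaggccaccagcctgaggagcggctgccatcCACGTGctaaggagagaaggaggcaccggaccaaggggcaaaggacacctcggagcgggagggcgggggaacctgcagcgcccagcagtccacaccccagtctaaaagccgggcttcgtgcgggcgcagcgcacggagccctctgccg
Mlxipl downstream: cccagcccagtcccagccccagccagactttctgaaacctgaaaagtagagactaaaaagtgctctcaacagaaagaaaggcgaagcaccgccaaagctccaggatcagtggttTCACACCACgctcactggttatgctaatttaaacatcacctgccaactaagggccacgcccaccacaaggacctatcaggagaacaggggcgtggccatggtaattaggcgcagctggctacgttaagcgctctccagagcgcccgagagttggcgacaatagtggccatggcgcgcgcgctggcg

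A CCAAT box was found in 8 of the 12 windows, which belong to 7 genes, and in 37.4% of all 32851 promoter windows. An E-box was found only in the upstream Mlxipl window, 98 bases before the start, and in 7.15% of all windows. The sterol regulatory element was found only in the downstream Mlxipl window, 136 bases before the start, and in 1.24% of all windows. GC boxes (GGGCGG), bound by SP1, were in 5 of the 12 windows and in 35.7% of all. A pair of exact E-boxes with 5 bases between them was in none of the 12 and in 0 of all windows. As no window held it, this pattern could not set the 12 apart. The windows of Fasn and Acacb, at opposite ends of the order, both held a CCAAT box and no E-box. These matches describe letters in a short window and not binding.

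The steps on either side of the pathway were less uniform. Of 8 genes for citrate export and acetyl-CoA supply, 2 were at least 2-fold lower and none higher, with a median log2 ratio of -0.55. Slc25a1, the citrate carrier of the inner mitochondrial membrane, had 38856 and 6641 counts and a log2 ratio of -2.25 (-2.30 to -2.20), below that of every lipogenic gene. Aacs, which makes acetoacetyl-CoA from ketone bodies in the cytosol, was at -1.89, and Acss2, which makes acetyl-CoA from acetate, at -0.84. Citrate synthase, Cs, was at 0.52. Of 7 further NADPH-linked genes the median was -0.069, with Pgd at -1.20 and Tkt at -0.72, while G6pdx was at 0.06 (-0.0031 to 0.12) and Pgls, with 67 and 146 counts, at 1.42.

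Genes that use the new fatty acids were mixed. Elongation and desaturation had 12 of 14 genes examined and a median of 0.14. Elovl6, which elongates palmitate, was at -1.05 (45797 and 17969 counts), whereas Elovl3 was at 2.52 (1721 and 8037 counts), and these were the only members past the size rule. In triglyceride synthesis, with 9 genes and a median of -0.31, Pnpla3 (-1.58) and Lpin1 (-1.54) were at least 2-fold lower and Dgat2 was at -0.43. Dgat1 was at 0.73 and Gpat3 at 0.98. Among 10 genes that control acetyl-CoA carboxylase or its product (median -0.15), Mid1ip1, which encodes a partner of ACC related to Spot 14, was at -1.37 (2073 and 650 counts). Prkag2, a regulatory subunit of the AMP-activated kinase that inactivates ACC, was at 1.73 (2625 and 7078 counts).

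Lists around the regulators stayed within 2-fold apart from single genes. None of 16 genes for SREBP processing and promoter partners passed the size rule in either direction, with a median of -0.19. Srebf2 was at -0.02 (-0.18 to 0.14), Insig1 at -0.51, Scap, the escort of SREBPs, at 0.60, and Rxra lowest at -0.81. Of 18 sterol genes examined of 19, which are driven mainly by SREBP2, the median was -0.32, and the summed counts gave a log2 ratio of 0.11. Hmgcs1 was at 0.40. In the ChREBP list, with 7 of 8 genes examined and a median of 0.39, the partner Mlx was lowest at -0.72, while the target Txnip was at 0.39 (42867 and 45592 counts). Glucose uptake, insulin and thyroid hormone signal had a median of -0.069 over 11 genes. The glucose transporter Slc2a4 was at -0.34, Hk2 at -0.57 and Insr at -0.14, and Dio2, which makes active thyroid hormone in brown fat, was at 2.28 (12330 and 48488 counts). Mitochondrial fatty acid synthesis, a separate pathway, had a median of 0.03 over 7 genes, from -0.33 for Acsf3 to 0.19 for Cbr4. The direction of several of these lists depended on how it was taken. With total counts the medians of elongation and desaturation and of mitochondrial fatty acid synthesis were -0.16 and -0.28, and with reference genes those of NADPH supply and of the insulin and thyroid list were both 0.018. Summed normalised counts gave -0.23 for elongation and desaturation, -0.30 for the ChREBP list (in which Gpd1 alone held 466500 and 288750 counts), 0.35 for control of acetyl-CoA carboxylase, 0.29 for the insulin and thyroid list and -0.0023 for mitochondrial fatty acid synthesis, each opposite in sign to its median.

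Fatty acid oxidation, the opposite route, had none of 10 genes past the size rule and a median of 0.25, from -0.10 for Cpt2 to 0.75 for Pdk4. With total counts that median was -0.058, so its direction depended on scaling. The direction of the 10 lipogenic genes was the same under each scaling tried.

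**Figure D4:**
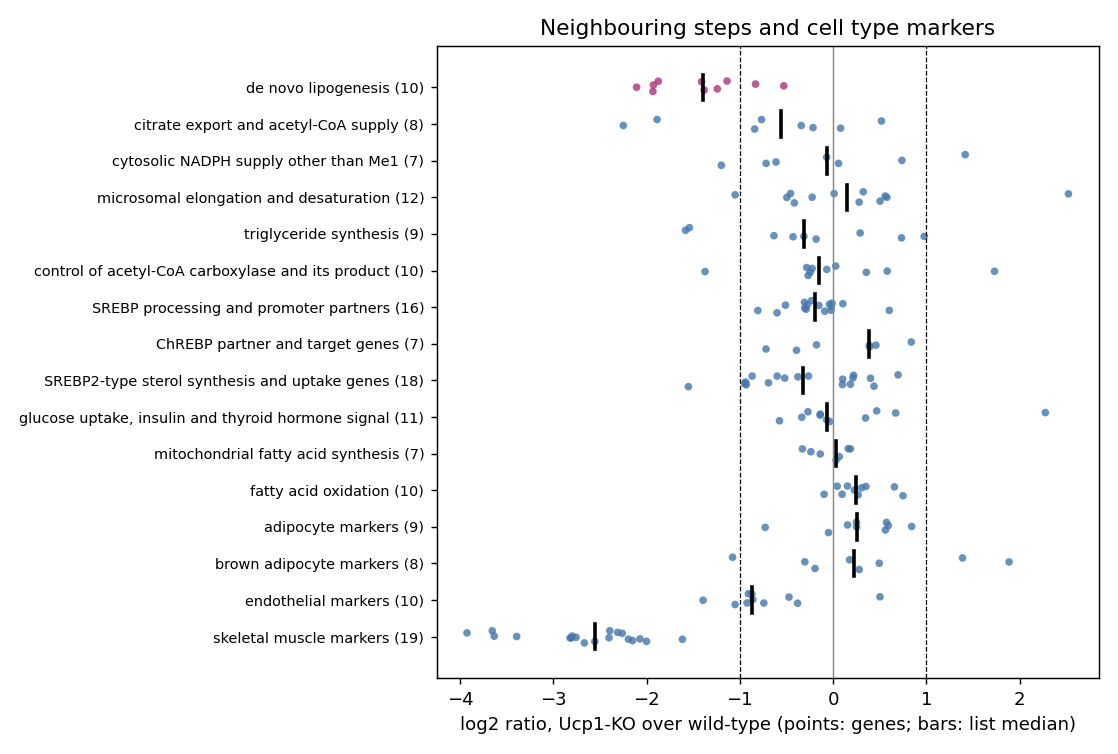
Log2 ratios of Ucp1-KO over wild-type for the genes examined in each list, 1 point per gene, with a black bar at the list median, dashed lines at 2-fold differences and the number of genes examined in brackets. The lipogenic genes and the skeletal muscle markers lie wholly below 0, while the other lists plotted reach both sides.

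Cell type markers were measured because fewer cells of a type and less RNA per cell cannot be told apart in tissue. Of 9 adipocyte markers none passed the size rule and the median was 0.25, or -0.055 with total counts, with Adipoq at 0.84, Plin1 at 0.56, Fabp4 at 0.15 and Cebpa lowest at -0.73. Together these 9 held a share of 1.48% in wild-type and 1.51% in Ucp1-KO. Scaled to them, the lipogenic median was -1.67 and 9 of the 10 genes were at least 2-fold lower. Brown adipocyte markers had a median of 0.23 over 8 genes, or -0.078 with total counts, with Ppargc1a at 1.89, Prdm16 at 1.39 and Adrb3 at -1.08.

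Markers of other cells also differed between the libraries. All 19 skeletal muscle markers were at least 2-fold lower, from -3.92 for Pvalb to -1.62 for Ryr1. Their summed share was 0.719% in wild-type and 0.0906% in Ucp1-KO, and none was at 0 in either library. Endothelial markers had a median of -0.87, with 9 of 10 below 0 beyond counting error, and their summed share was 0.239% and 0.118%. Acacb is known to be abundant in muscle, and the part of muscle or endothelium in the lipogenic differences was not tested. The muscle median of -2.55 was below the ratio of every lipogenic gene. Summed over the list, the muscle markers had 380918 (wild-type) and 48227 (Ucp1-KO) counts. The lipogenic genes together had 1103942 and 319703. Among single genes, the fall of Acta1 was 62352 normalised counts against 167676 for Fasn.

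No lipogenic gene was among the 20 lowest log2 ratios when genes averaging 1000 or more normalised counts were ranked. Fasn was at rank 50 of those 6395 genes. Of the 20, 6 were on the muscle marker list, led by Pvalb, and the others were Ankrd2, Csrp3, Odad4, Sypl2, Mybpc2, Hspb7, Pgam2, Aspg, Ckmt2, Tnni1, Flnc, Cyp2b10, Ucp1 and Myl2. Among these, Ankrd2, Csrp3, Sypl2, Mybpc2, Hspb7, Pgam2, Ckmt2, Tnni1, Flnc and Myl2 are known striated muscle genes that the marker list did not hold. Aspg, which encodes an asparaginase-like enzyme, was at -3.10 and Cyp2b10, a cytochrome P450, at -2.99.

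Scaling between the libraries moved every ratio by the same amount and not the order. Total counts shifted the median of all genes by -0.31 and adipocyte markers by -0.27. Genes at least 2-fold lower then made up 15.2% and 14.4% of those examined. Of the genes that differed 2-fold or more, 43.7% were higher in Ucp1-KO as scaled here, 24.0% with total counts and 26.5% with adipocyte markers. Over all settings tried Fasn stayed between -2.41 and -2.02, Srebf1 between -1.44 and -1.05 and Acacb between -0.84 and -0.44.

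**Figure D5:**
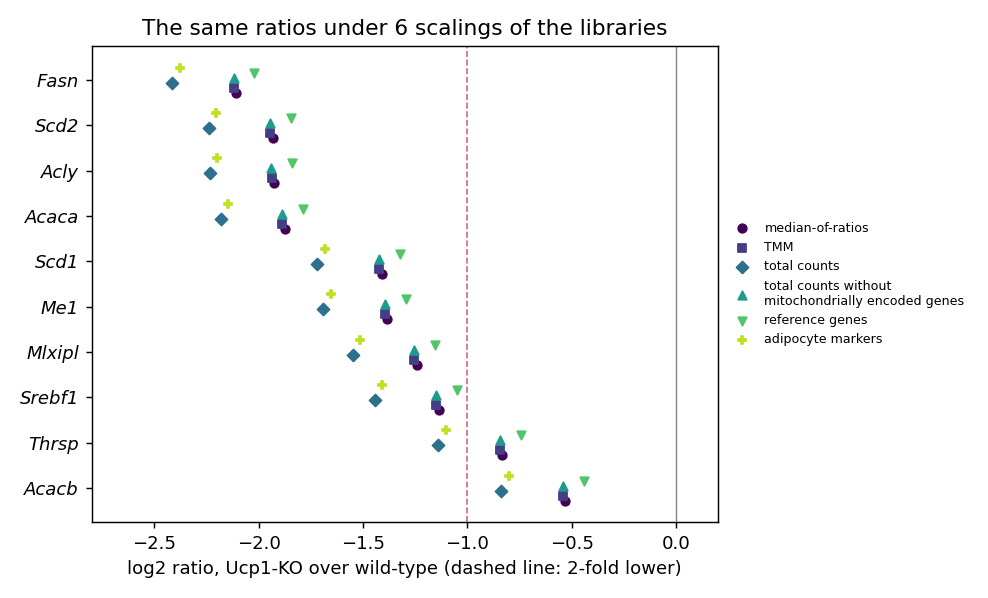
The log2 ratio of each lipogenic gene under 6 scalings of the libraries, with 1 symbol per scaling. For each gene total counts and adipocyte markers lie to the left and the reference genes Tbp, Hsp90ab1 and Gtf2b to the right, and only Thrsp has values on both sides of the dashed 2-fold line.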

How the data were processed

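RNA of iBAT was sequenced from directional, poly-A enriched libraries, 1 per genotype. The deposited values are raw counts per gene on Entrez identifiers that the authors made with featureCounts. The submitters' processing notes name Trim Galore, HISAT2 and mm39 (GRCm39). Annotation, strand setting and the handling of reads with several matches are not given in the sources used here.

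Size factors by the median-of-ratios method (DESeq2 1.42.0, R 4.3.3) were 1.11 for wild-type and 0.901 for Ucp1-KO. The size rule asked for a log2 ratio beyond 1 in either direction in genes averaging 10 or more normalised counts. Among genes with 1 to 10 counts 70.7% (wild-type) and 73.4% (Ucp1-KO) were even, as when both mates are counted. Exact Poisson, binomial and conditional binomial intervals (SciPy 1.17.1) therefore used counts divided by 2. Not all counts came in pairs, since the remaining low counts were odd. Among genes with 100 to 1000 counts 49.9% (wild-type) and 50.2% (Ucp1-KO) were even. With intervals on the counts as deposited, all 10 lipogenic genes were also lower beyond counting error. No molecular identifiers were stated, so reads may share a molecule.

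Gene positions, exon lengths and transcript words came from GENCODE mouse release 39 on GRCm39, joined by symbol. The 10 genes, the 22 other lists and all rules were chosen with earlier results of these data known. Named were all 10 genes, list genes past the size rule or at the ends of a list, further list genes, the 20 lowest ratios among genes averaging 1000 or more normalised counts, and the 10 largest falls. A few list genes are not reported here. The ratios and intervals were tested on data simulated with counting error alone. That test holds no variation between animals or pools and does not cover it. Alternatives were TMM (edgeR 4.0.16), total counts with and without mitochondrially encoded genes, scaling to reference genes or adipocyte markers, a pseudocount of 5, other filters and other size rules.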

Additional observations from a re-analysis of the deposited data

How the results depend on the processing

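No paired analysis was possible because only 1 library was made per genotype, and leaving out a library was not possible for the same reason. The median log2 ratio of the 10 genes was -1.70 with total counts, -1.67 with adipocyte markers, -1.31 with reference genes and -1.31 without Scd1 and Scd2. At least 2-fold lower were 8 or 9 of the 10 under every scaling, filter and pseudocount and with the interval wholly beyond 2-fold, and 4 with a log2 ratio of at least 1.5. Without mitochondrially encoded genes their share of counts was 2.69% in wild-type and 0.949% in Ucp1-KO.

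The number of all genes at least 2-fold lower, 1453, was 2320 with total counts, 2185 with adipocyte markers, 2844 without a filter, 811 with a minimum mean of 50, 566 with an interval wholly beyond 2-fold and 796 with a log2 ratio of at least 1.5. The last 3 settings lower it by construction. List medians changed sign with total counts and with adipocyte markers for fatty acid oxidation (-0.058 and -0.023), adipocyte markers (-0.055 and -0.020), elongation and desaturation (-0.16 and -0.13), mitochondrial fatty acid synthesis (-0.28 and -0.24), brown adipocyte markers (-0.078 and -0.043) and macrophage markers (-0.12 and -0.085). With reference genes they did so for NADPH supply and for the insulin and thyroid list (both 0.018). Of 80 values for single lipogenic genes 51 stayed within the counting interval, 29 moved and 0 changed sign. The filter settings could not change a single gene's ratio, and all 29 moves came with total counts, adipocyte markers or reference genes. With a minimum mean of 50 no epithelial marker was left to give a median. Depth limits Scd2 most among the 10.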

Other observations

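Genes beside the lipogenic genes on the chromosome were looked up after the values above had been seen. Taken on each side was the nearest examined protein-coding gene wholly outside the annotated span, other lipogenic genes left aside. Genes overlapping a span were passed over, so those taken need not be the closest, and overlapping genes are not covered by these values. This gave 18 genes with a median log2 ratio of -0.31. Of these, 2 were at least 2-fold lower and none higher, against 9.55% and 7.42% of all genes examined. Beside Fasn, Dus1l was at 0.32 and Ccdc57 at -0.82 (397 and 183 counts). Beside Acly, Klhl11 was at 0.58 and Cnp at -0.60. The 2 lower ones were Dusp14 beside Acaca (-1.80, from 169 and 39 counts) and Kctd14 beside Thrsp (-1.05, from 77 and 30 counts).

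Markers of further cell types had these values. White adipocyte markers had Retn at -1.90 (3418 and 746 counts) and Lep, which encodes leptin, at -1.26 (821 and 279 counts), with 3 of 5 genes examined and a median of -1.26. Preadipocyte and fibroblast markers had a median of -0.16 over 8 genes, none past the size rule. Macrophage markers had a median of 0.19 over 10 genes, or -0.12 with total counts. Past the size rule were 3, Itgam at 2.04, Trem2 at 1.92 (10 and 32 counts) and Cd68 at 1.09. Cd163 was lowest at -0.47 (1093 and 643 counts), while Adgre1 was at -0.21 and Csf1r at -0.0067. The counting interval lay above 0 for 5 of the 10 and below 0 for 1. Schwann cell markers had a median of -0.59 over 8 genes. Of 8 epithelial markers 2 were examined, Mc5r (42 and 0 counts) and Awat2 (23 and 34 counts), while Krt5, Krt14, Krt8 and Epcam had 0 counts in both libraries. The reference genes Tbp, Hsp90ab1 and Gtf2b were at -0.38, -0.10 and 0.21.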
